A study of Mus musculus with 14 samples.

Results

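To follow how genes of chromosome segregation behaved in aging blood progenitors, 53 genes that build the kinetochore, the mitotic spindle, cohesin and condensin were read out in multipotent progenitors (MPPs) from old and young mice. The members were chosen by gene symbol, with earlier results of these data known, and all 53 were measured by 1 probe set each among 19155 genes. 3 of them carry newer symbols here (Knl1 for Casc5, Sgo1 for Sgol1 and Sgo2a for Sgol2). No member was lost to a filter on low values. MPP4s are the lymphoid-biased and MPP3s the myeloid-biased progenitors that descend from hematopoietic stem cells.

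All mice were wild-type C57BL/6 animals, and all cells came from bone marrow. Old mice were 24 months and young mice 8 to 10 weeks of age. MPP4s were sorted as Flk2+ cells of the Lin-/cKit+/Sca-1+ fraction and MPP3s as the Flk2- cells of that fraction that were CD48+ and CD150- per the series description, with 20000 double-sorted cells taken for each sample. The methods of the study write CD150+ for MPP3s, and which gate applied to these arrays is not settled here. Slamf1, which encodes CD150, had values of 0.086 to 0.160 on the MPP4 arrays and 0.11 to 0.25 on the MPP3 arrays. The groups held 3 old MPP4, 5 young MPP4, 3 old MPP3 and 3 young MPP3 arrays (Affymetrix Mouse Gene ST 1.0, 14 in all), described as biological replicates. The sources used here do not give the number of mice behind each sample or whether MPP4s and MPP3s came from the same animals. The young arrays had also been part of an earlier series, so age and series cannot be told apart. Flt3, which encodes the Flk2 antigen of the sort, had values of 2.77 to 3.53 on the MPP4 arrays and 1.42 to 2.20 on the MPP3 arrays.

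When a cell divides, each chromosome builds a kinetochore on its centromere, and spindle microtubules attach to it. The checkpoint kinases hold the cell in mitosis until every kinetochore is attached, and the chromosomal passenger complex corrects wrong attachments. Cohesin keeps sister chromatids together until separase cuts it, and condensin compacts them. Most of these genes are transcribed late in the cell cycle, so in a bulk sample their level follows the share of dividing cells as well as the RNA per cell, and these cannot be told apart here.

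The values are normalized array values on a rank scale. A value states how far up its own array a probe set ranks, as the negative natural log of the fraction that ranks as high or higher, so that 0.693 marks the top 50%, 2.30 the top 10% and 4.61 the top 1%. A difference between groups is a difference in this normalized value and not a fold change. Averaged over all arrays, 52 of 53 members lay above the median gene, with a median member value of 1.87 against 0.695 for all genes. Probe sets differ in brightness, so the values of different genes were not set against each other further. The members were more variable than most genes, with a median SD within groups of 0.184 against 0.0897 for all genes.

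Several arrays stood apart before any comparison between groups. On the dimmest 33.3% of probe sets the arrays formed 2 sets. The first, called set 1, was made up of the 6 old arrays, 1 young MPP3 array (replicate 1) and 2 young MPP4 arrays (replicates 1 and 2), while the remaining 5 young arrays formed set 2. Xist, which is transcribed in females, had values of 2.23 to 3.49 on 3 young MPP4 arrays (replicates 1, 4 and 5) and 3.52 on 1 young MPP3 array (replicate 1). It did not exceed 0.215 on the other arrays, old ones included. Eif2s3y, a Y-linked gene, had 0.026 on young MPP4 replicate 1 and 0.022 on young MPP3 replicate 1. Young MPP4 replicates 4 and 5 carried both signals, with Eif2s3y at 0.85 and 1.89. Whether these samples pooled mice of both sexes was not tested. Young MPP4 replicate 1 had the lowest value of all 14 arrays for 31 of 53 members. Young MPP4 replicate 2 had the highest value of its group for 30 members. Among old samples, MPP4 replicate 1 was the lowest of its group for 40 members, and MPP3 replicate 3 for 34.

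The upstream sequences of 5 members are shown because they include genes whose old and young arrays did not overlap in either population (Ckap2, Smc2 and Hmmr) and the highest-ranking members of the MPP3 comparison (Aurka and Cdca8), all chosen after their values were seen. Dlgap5 and Esco2 met the first criterion too. Each line gives the 250 bases before the RefSeq start on build GRCm38.p6, read 5′ to 3′ on the strand of the gene, for Ckap2 (chr8:22185820-22186069, minus strand), Smc2 (chr4:52438971-52439220, plus strand), Hmmr (chr11:40733438-40733687, minus strand), Aurka (chr2:172370571-172370820, minus strand) and Cdca8 (chr4:124936918-124937167, minus strand). Capitals mark TTTGAA, the core of the cell cycle homology region, and CCAAT, the box read by NF-Y, on either strand (TTCAAA and ATTGG on the reverse strand).
Ckap2: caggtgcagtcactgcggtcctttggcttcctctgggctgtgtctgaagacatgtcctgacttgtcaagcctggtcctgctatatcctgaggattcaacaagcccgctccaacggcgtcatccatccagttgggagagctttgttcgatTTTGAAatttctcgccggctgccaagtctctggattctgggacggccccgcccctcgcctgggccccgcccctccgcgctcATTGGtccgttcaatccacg
Smc2: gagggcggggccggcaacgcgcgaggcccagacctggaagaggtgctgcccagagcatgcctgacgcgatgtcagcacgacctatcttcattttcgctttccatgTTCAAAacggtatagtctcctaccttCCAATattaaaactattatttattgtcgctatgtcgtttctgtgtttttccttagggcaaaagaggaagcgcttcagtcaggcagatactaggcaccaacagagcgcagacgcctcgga
Hmmr: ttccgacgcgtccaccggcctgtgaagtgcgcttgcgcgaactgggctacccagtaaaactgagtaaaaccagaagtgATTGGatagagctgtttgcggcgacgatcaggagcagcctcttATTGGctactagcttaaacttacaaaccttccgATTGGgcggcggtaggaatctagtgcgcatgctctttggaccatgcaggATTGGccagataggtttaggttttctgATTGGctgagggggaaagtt
Aurka: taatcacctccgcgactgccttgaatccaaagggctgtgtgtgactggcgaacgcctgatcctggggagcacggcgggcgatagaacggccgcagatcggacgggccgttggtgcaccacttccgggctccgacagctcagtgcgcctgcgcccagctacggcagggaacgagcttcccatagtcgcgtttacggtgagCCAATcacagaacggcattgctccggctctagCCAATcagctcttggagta
Cdca8: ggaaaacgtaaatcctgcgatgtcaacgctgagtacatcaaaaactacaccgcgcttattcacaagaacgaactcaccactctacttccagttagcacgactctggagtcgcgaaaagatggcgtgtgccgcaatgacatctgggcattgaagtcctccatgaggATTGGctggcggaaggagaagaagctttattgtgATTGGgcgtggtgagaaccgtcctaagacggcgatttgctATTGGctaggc

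In Hmmr, which had the largest age difference of all members in MPP4s and the second largest in MPP3s, 5 reverse-strand CCAAT words stood within the 172 bases before the start. Cdca8 held 3 and Aurka held 2. Ckap2 and Smc2 held 1 of each word. Hmmr, Aurka and Cdca8 held no TTTGAA in the bases shown, but had it elsewhere in their RefSeq windows, which are counted below. RefSeq windows of 300 bases, with 250 before and 50 after the start, were found for 43 of 53 members, and a gene was counted once if any of its windows held the word. TTTGAA was found in 58.1% of these members (25 genes) and in 20.2% of all 27025 genes with a window. CCAAT was found in 67.4% of members (29) and in 41.1% of all genes, and both words together in 46.5% of members (20) and 8.97% of all genes. GCGGGAA, a core of E2F sites, was found in 18.6% of members (8) and 5.29% of all genes. Among genes measured on the array with a window (15214), the shares were 17.3% for TTTGAA, 41.7% for CCAAT, 7.92% for both and 7.38% for GCGGGAA. A match is a match of letters and was not tested as a binding site. Nusap1, Nuf2, Mad2l1 and Birc5, which were among the highest-ranking members in MPP4s, held none of the 3 words in their windows.

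In MPP4s, segregation genes lay higher in old than in young samples across nearly the whole list. The mean over the 53 members was 1.95, 2.11 and 2.07 on the old MPP4 arrays, against 1.54, 1.94, 1.77, 1.87 and 1.82 on the young MPP4 arrays. All 3 old arrays lay above all 5 young ones, although old replicate 1 lay only 0.0052 above young replicate 2. The old mean was higher for 49 of 53 members, against 49.8% of all genes tested, and the median difference was 0.26 in normalized value. 24 members were higher at an unadjusted p under 0.05 by limma, against 4.5% of all genes, and 0 were lower, against 5.27%. None passed the adjusted threshold of 0.05 by limma (0% of all genes did), where the smallest adjusted p of a member was 0.287. A SAM-type statistic called 1 member, Esco2. Old and young arrays did not overlap for 18 members, all higher in old (34.0% of members, 3.28% of all genes), and for 0 members lower in old (4.01% of all genes).

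**Figure D1:**
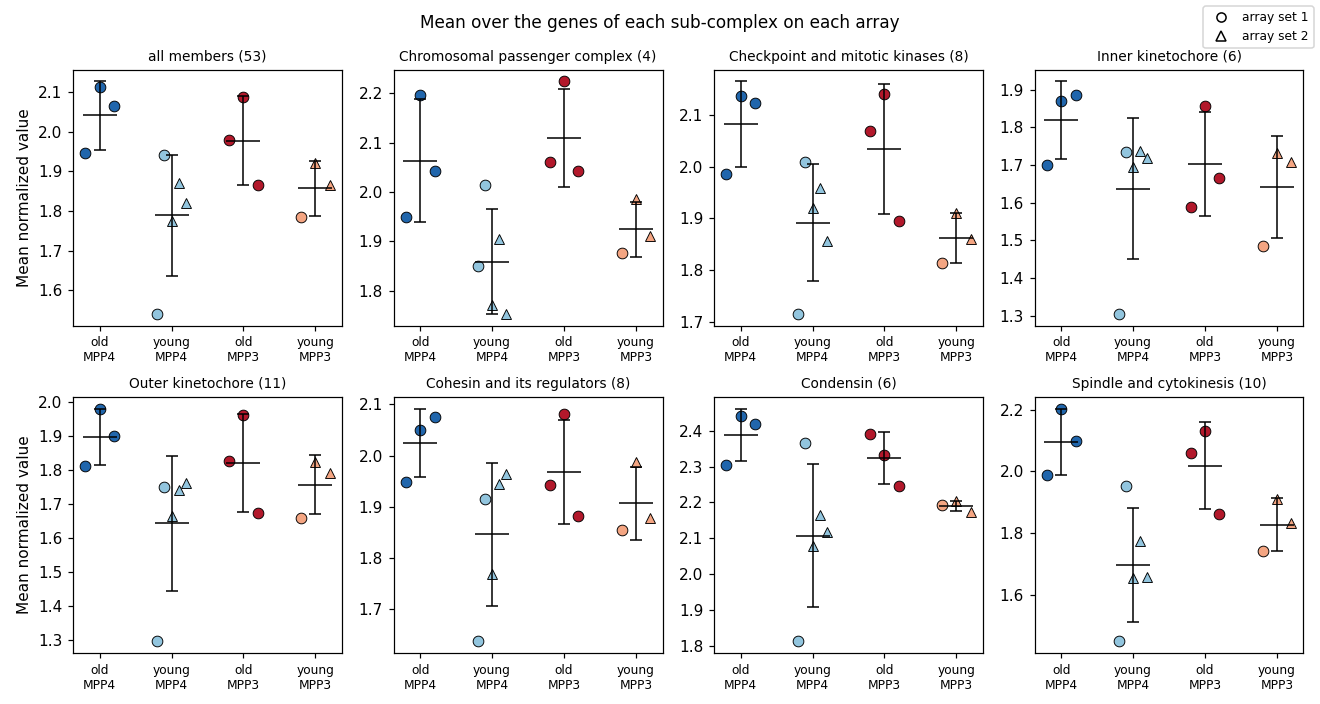
Mean normalized value over all 53 members and over the genes of each sub-complex (number of genes in brackets) on each of the 14 arrays. Circles are arrays of set 1 and triangles of set 2, and horizontal lines with bars are group means ± SD (3, 5, 3 and 3 arrays); the vertical axes do not start at 0. Young MPP4 replicate 1 lies below the other young MPP4 arrays in all panels but that of the chromosomal passenger complex.

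The genes of spindle assembly and cytokinesis showed the widest age difference in MPP4s, with 10 of 10 higher in old samples, 7 at an unadjusted p under 0.05, 7 without overlap and a median difference of 0.37. Hmmr, which encodes a microtubule-binding spindle protein, had 1.75, 2.00 and 2.03 in old MPP4s, against 0.76, 1.74, 1.15, 1.33 and 1.12 in young MPP4s. The lowest old sample lay just above young replicate 2, and the other 4 young samples lay far below (difference 0.71 ± 0.20 SE, limma adjusted p = 0.391). Nusap1, which bundles spindle microtubules near chromatin, had 2.57, 2.84 and 2.63 in old MPP4s, against 1.64, 2.41, 2.12, 2.08 and 2.00 in young MPP4s. These groups did not overlap either (0.63 ± 0.16, limma adjusted p = 0.361). Dlgap5, a spindle assembly factor, had 2.13, 2.18 and 2.02 in old MPP4s, against 1.73, 1.98, 1.58, 1.67 and 1.49 in young MPP4s (0.42 ± 0.11, limma adjusted p = 0.361). Aspm, which works at the spindle poles, had 1.76, 2.02 and 1.82 in old MPP4s, against 1.32, 1.75, 1.48, 1.40 and 1.45 in young MPP4s. Its lowest old value lay 0.0069 above its highest young value, and its difference was 0.39 ± 0.10 (limma adjusted p = 0.365). Prc1, the bundler of the central spindle, differed by 0.27 ± 0.070, Tpx2, which activates Aurora A on the spindle, by 0.27 ± 0.080, and Ckap2, a microtubule-associated protein, by 0.36 ± 0.15, all without overlap. Anln, Ect2 and Ckap5, which act in cytokinesis or on microtubule ends, had differences of 0.39, 0.32 and 0.25 with overlapping groups.

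**Figure D2:**
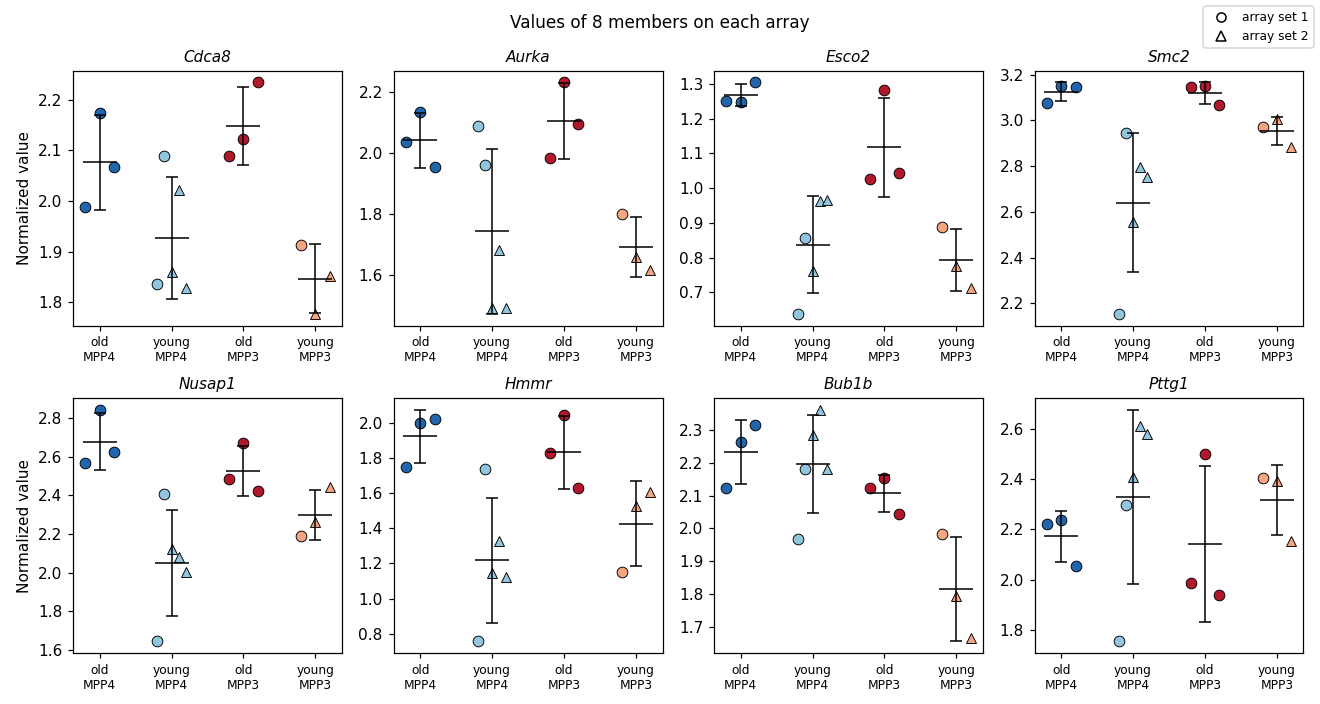
Normalized values of 8 members on each array, by group, with group means ± SD (3, 5, 3 and 3 arrays); circles are arrays of set 1, triangles of set 2, and the vertical axes do not start at 0. Esco2 and Smc2 separate old from young in both populations, Cdca8, Aurka and Bub1b separate them in MPP3s and overlap in MPP4s, Nusap1 separates them in MPP4s and overlaps in MPP3s, and Pttg1 overlaps in both.

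Cohesin regulators held the member that ranked first in MPP4s. Esco2, the acetyltransferase that establishes cohesion in S phase, had 1.25, 1.25 and 1.30 in old MPP4s, against 0.64, 0.86, 0.76, 0.96 and 0.97 in young MPP4s. The 3 old values lay close together and well above the highest young value (0.43 ± 0.078, limma adjusted p = 0.287). Espl1, the separase that cuts cohesin, had 0.85, 0.94 and 0.87 in old MPP4s, against 0.79, 0.72, 0.51, 0.61 and 0.50 in young MPP4s, again without overlap (0.26 ± 0.072, limma adjusted p = 0.383). Of the 8 genes in this group 6 had a higher old mean. Smc1a, a core cohesin subunit, and Sgo2a, a protector of centromeric cohesion, differed by 0.35 ± 0.13 and 0.34 ± 0.11 with overlapping groups. Pttg1, the securin that inhibits separase, was the lowest-ranking member. Its values were 2.22, 2.24 and 2.06 in old MPP4s, against 1.76, 2.30, 2.41, 2.61 and 2.58 in young MPP4s (-0.16 ± 0.19, limma adjusted p = 0.825). Here young replicate 1 was below and the other 4 young samples were above every old sample, and without that array the groups no longer overlapped. Esco1, the acetyltransferase that acts outside S phase, differed by -0.08 ± 0.14.

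At the outer kinetochore, which contacts the microtubule, 10 of 11 genes had a higher old mean in MPP4s, 5 at an unadjusted p under 0.05 and 5 without overlap. Nuf2, a subunit of the Ndc80 complex, had 2.28, 2.31 and 2.32 in old MPP4s, against 1.69, 2.13, 1.94, 2.14 and 1.78 in young MPP4s (0.37 ± 0.11, limma adjusted p = 0.399). Its partners in the same complex had overlapping groups and differences of 0.03 ± 0.15 for Ndc80, -0.06 ± 0.096 for Spc24 and 0.15 ± 0.17 for Spc25. Ska2, of the complex that tracks microtubule ends, had 2.10, 2.12 and 1.95 in old MPP4s, against 1.55, 1.83, 1.66, 1.82 and 1.86 in young MPP4s, and these groups did not overlap (0.31 ± 0.081, limma adjusted p = 0.365). Knl1, the scaffold that recruits the checkpoint kinases, differed by 0.48 ± 0.15, the kinesin Cenpe by 0.47 ± 0.19 and Cenpf by 0.39 ± 0.20, each without overlap. Young replicate 1 was far below the rest for Cenpe (1.20) and Cenpf (1.07).

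Checkpoint genes and mitotic kinases were higher in old MPP4s for 8 of 8 genes, with a median difference of 0.20. Mad2l1, the checkpoint protein that holds back the anaphase-promoting complex, had 2.94, 3.02 and 3.03 in old MPP4s, against 2.74, 2.88, 2.79, 2.86 and 2.86 in young MPP4s. The difference was small and the groups did not overlap (0.17 ± 0.039, limma adjusted p = 0.323). Bub1, the kinase that marks the inner centromere, had 2.16, 2.26 and 2.37 in old MPP4s, against 1.46, 2.08, 1.88, 2.05 and 1.93 in young MPP4s (0.38 ± 0.14, limma adjusted p = 0.469). Its pseudokinase relative Bub1b, a part of the mitotic checkpoint complex, differed by 0.04 ± 0.089 only, with overlapping groups. Aurka, the kinase of centrosomes and spindle poles, differed by 0.30 ± 0.15, with young replicates 1 and 2 (2.09 and 1.96) among the old values of 2.04, 2.14 and 1.95 and the 3 young arrays of set 2 below them (1.49 to 1.68).

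In the chromosomal passenger complex all 4 genes had a higher old mean in MPP4s, and in condensin all 6. Birc5, the survivin subunit that targets the complex to centromeres, had 2.24, 2.45 and 2.20 in old MPP4s, against 1.89, 2.09, 2.01, 2.17 and 2.03 in young MPP4s, without overlap (0.26 ± 0.077, limma adjusted p = 0.395). Smc2, an ATPase core subunit of condensin, had 3.08, 3.15 and 3.15 in old MPP4s, against 2.15, 2.94, 2.56, 2.80 and 2.75 in young MPP4s, again without overlap (0.48 ± 0.17, limma adjusted p = 0.448). Ncapg, a condensin I subunit, differed by 0.45 ± 0.25 with a value of 1.23 on young replicate 1 and 2.05 to 2.46 on the other young arrays. At the inner kinetochore 5 of 6 genes had a higher old mean and none was without overlap, and the centromeric histone Cenpa differed by -0.03 ± 0.068. The highest-ranking gene there was Cenpn, which binds that histone (0.25 ± 0.083, limma adjusted p = 0.440).

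In MPP3s, the age difference of segregation genes had the same direction for most members, with a lower median. The mean over the members was 1.98, 2.09 and 1.87 on the old MPP3 arrays, against 1.78, 1.92 and 1.87 on the young MPP3 arrays, and these groups overlapped. The old mean was higher for 43 of 53 members, against 50.1% of all genes tested, with a median difference of 0.12. By limma, 9 members were higher at an unadjusted p under 0.05, against 3.44% of all genes, and 0 were lower, against 4.75%. None passed the adjusted threshold (0% of all genes), the lowest adjusted p among members being 0.471, and 0 members were called by the SAM-type statistic. Old and young arrays did not overlap for 12 members, all higher in old (22.6% of members, 6.14% of all genes), and for 0 members lower in old (8.04% of all genes).

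The 4 highest-ranking members of this comparison were Cdca8, Aurka, Ncapg and Incenp. Cdca8, the borealin subunit of the complex, had 2.09, 2.12 and 2.23 in old MPP3s, against 1.91, 1.78 and 1.85 in young MPP3s (0.30 ± 0.056, limma adjusted p = 0.471). Incenp, its scaffold, had 2.15, 2.27 and 2.33 in old MPP3s, against 1.95, 2.01 and 1.85 in young MPP3s (0.31 ± 0.066, limma adjusted p = 0.488). Both genes separated the ages without overlap, as did Aurkb, the kinase of the complex, with a difference of 0.20 ± 0.099. Birc5, by contrast, had 2.20, 2.43 and 1.89 in old MPP3s, against 1.98, 2.43 and 2.31 in young MPP3s, and the 2 ages covered about the same range. Aurka had 1.98, 2.23 and 2.10 in old MPP3s, against 1.80, 1.66 and 1.62 in young MPP3s, with all old values above all young ones (0.41 ± 0.082, limma adjusted p = 0.471). Bub1b had 2.12, 2.15 and 2.05 in old MPP3s, against 1.98, 1.79 and 1.67 in young MPP3s (0.29 ± 0.087, limma adjusted p = 0.547).

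Condensin and cohesin genes contributed 3 further members without overlap in MPP3s. Ncapg had 2.50, 2.41 and 2.28 in old MPP3s, against 2.14, 2.10 and 2.08 in young MPP3s (0.29 ± 0.060, limma adjusted p = 0.482). Smc2 had 3.14, 3.15 and 3.07 in old MPP3s, against 2.97, 3.01 and 2.88 in young MPP3s (0.17 ± 0.045, limma adjusted p = 0.511). Esco2 had 1.03, 1.28 and 1.04 in old MPP3s, against 0.89, 0.78 and 0.71 in young MPP3s (0.33 ± 0.087, limma adjusted p = 0.511). For these 3 genes the lowest old array lay above the highest young array by 0.06 to 0.14 in normalized value.

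Among spindle and cytokinesis genes 10 of 10 had a higher old mean in MPP3s and 4 did not overlap, namely Dlgap5, Hmmr, Ckap2 and Ckap5. Dlgap5 differed by 0.23 ± 0.083, Ckap2 by 0.12 ± 0.070 and Ckap5, a microtubule polymerase, by 0.20 ± 0.062. Hmmr had 1.83, 2.05 and 1.63 in old MPP3s, against 1.15, 1.53 and 1.60 in young MPP3s (0.41 ± 0.16, limma adjusted p = 0.611). The lowest old Hmmr value lay just above the highest young one. Nusap1 overlapped (0.23 ± 0.095). At the outer and inner kinetochore 7 of 11 and 5 of 6 genes had a higher old mean, with 0 without overlap and medians of 0.06 and 0.05. Cenpe differed by 0.28 ± 0.11. The lowest-ranking members were Ndc80 (-0.11 ± 0.078), Espl1 (-0.10 ± 0.090), Pttg1 (-0.17 ± 0.17), Esco1 (-0.12 ± 0.12) and Ska1 (-0.09 ± 0.16), all with overlapping groups.

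**Figure D3:**
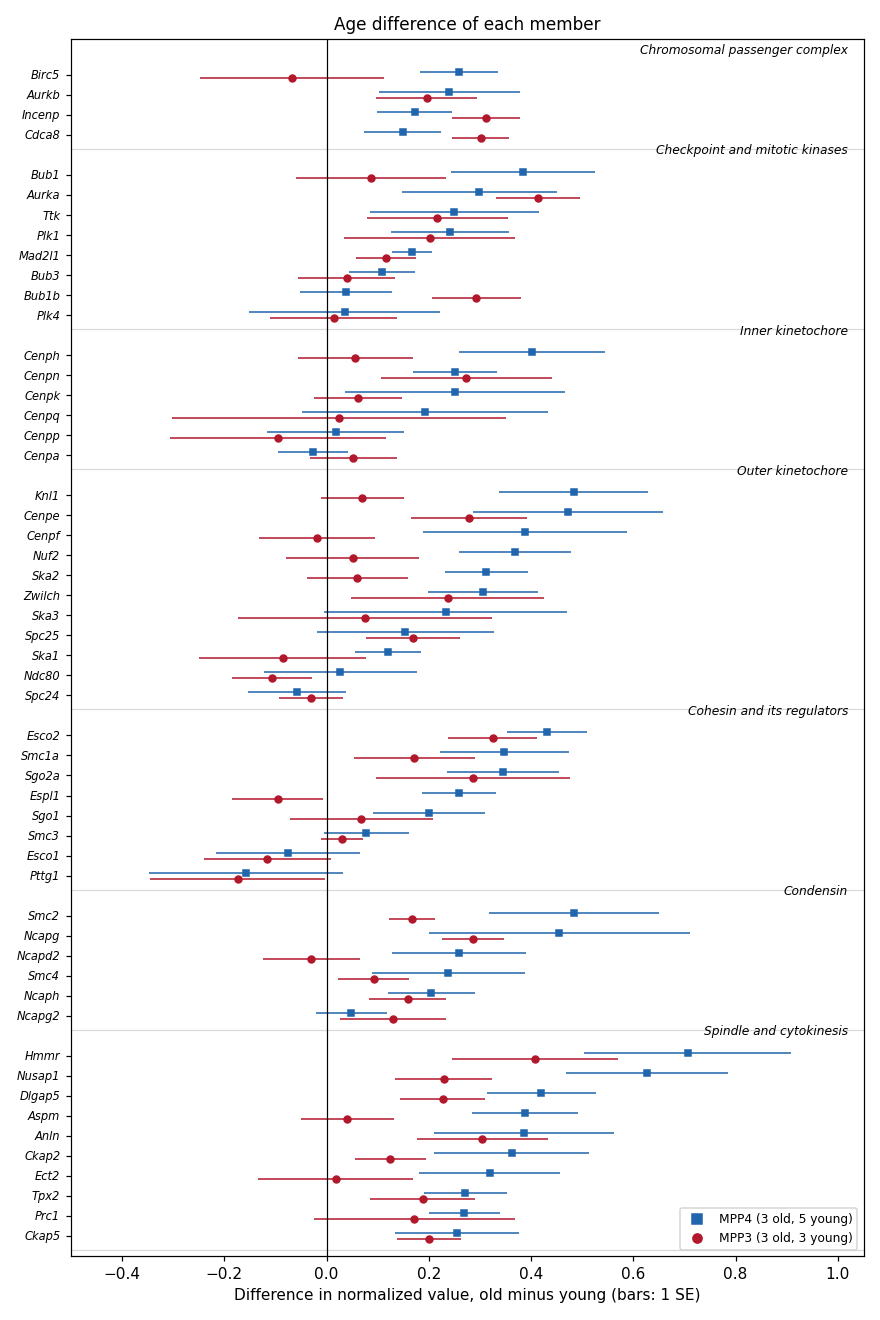
Difference in normalized value between old and young samples for each of the 53 members, in MPP4s (squares, 3 old and 5 young arrays) and MPP3s (circles, 3 and 3), with bars of 1 SE from limma; members are grouped by sub-complex and ordered by the MPP4 difference. In MPP4s 49 and in MPP3s 43 members lie to the right of 0, and Hmmr lies farthest right in MPP4s.

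The 2 age comparisons use different arrays, but they are not known to be independent. In both, all old arrays were in set 1 without Xist signal, and the young arrays had been part of an earlier series. MPP4s and MPP3s may also have come from the same mice. The old mean was higher in both populations for 42 of 53 members (79.2%, against 29.6% of all genes), lower in both for 3 (Spc24, Pttg1 and Esco1), higher in MPP4s alone for 7 and higher in MPP3s alone for 1. Old and young arrays did not overlap in either population for 5 members (9.43%, against 0.454% of all genes): Ckap2, Dlgap5, Esco2, Hmmr and Smc2. The signed age difference (old minus young) was greater in MPP4s than in MPP3s for 44 of 53 members, against 48.7% of all genes, among them all 10 spindle and cytokinesis genes and all 8 cohesin genes. For Esco1 and Pttg1 this means a negative difference nearer to 0 in MPP4s. For Cenpp and Ndc80 it means a small positive one in MPP4s beside a negative one of greater size in MPP3s. When 1 array at a time was left out, the count of members with the greater difference in MPP4s ranged over 33 to 46 of 53. Beyond the members, the signed age difference was greater in MPP4s for 23 of 28 DNA replication genes (82.1%). It was greater for 27 of 52 segregation genes outside the list (51.9%), a share near that of all genes. The test of the difference between the 2 age differences passed the adjusted threshold for 0 members by limma (0% of all genes), so no member was shown to respond to age differently in the 2 populations. The SAM-type statistic was not run for this contrast. At an unadjusted p under 0.05 it gave 2 members higher in MPP4s, against 3.44% of all genes, and 0 lower, against 2.83%. These were Espl1 (0.35 ± 0.12, limma adjusted p = 0.699), which had 0.90, 0.85 and 0.63 in old MPP3s against 0.78, 0.93 and 0.95 in young MPP3s, and Aspm (0.35 ± 0.15, limma adjusted p = 0.786). The young Espl1 values lay apart by array set. In young MPP4s they were 0.79 and 0.72 in set 1 and 0.50 to 0.61 in set 2. In young MPP3s they were 0.78 in set 1 and 0.93 and 0.95 in set 2. The part of the array set in this contrast was not tested. The lowest values of this contrast included Bub1b (-0.25 ± 0.13), Cdca8 (-0.15 ± 0.10) and Incenp (-0.14 ± 0.11).

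**Figure D4:**
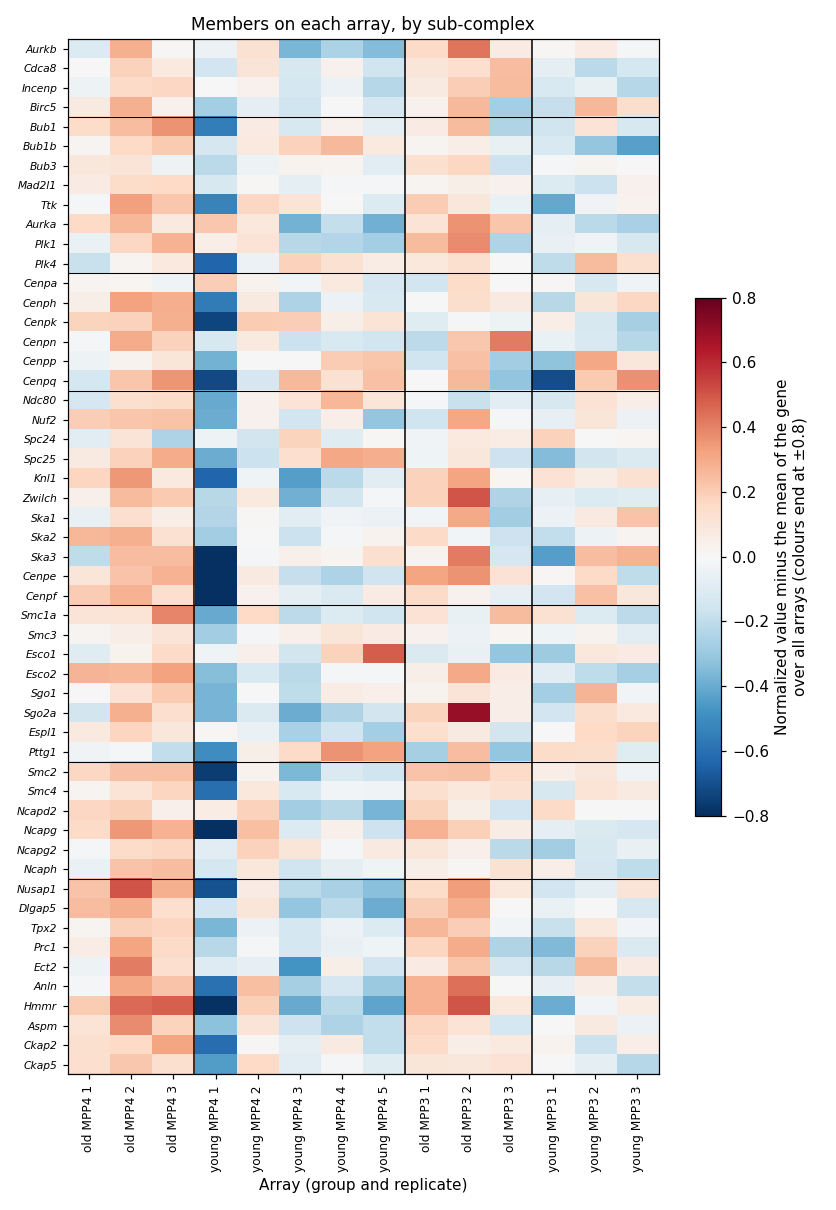
Normalized value of each member on each array minus the mean of that gene over all 14 arrays, with members grouped by sub-complex and arrays by group. The column of young MPP4 replicate 1 is the darkest blue, with the lowest value of all arrays for 31 members, and old MPP4 replicates 2 and 3 and old MPP3 replicate 2 are mostly red.

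The arrays that stood apart changed the size of these differences more than their direction. Without young MPP4 replicate 1, 46 of 53 members had a higher old mean in MPP4s, with a median difference of 0.23, 28 members higher at an unadjusted p under 0.05 (7.61% of all genes) and 18 without overlap (6.72% of all genes). Without young MPP4 replicate 2, the array closest to the old ones, 26 members did not overlap (6.41% of all genes), and without old MPP4 replicate 1, 32 did (5.93% of all genes). Without old MPP4 replicate 2 or replicate 3, 14 members lay higher in old samples at an unadjusted p under 0.05, against 3.16% of all genes without replicate 2 and 3.19% without replicate 3. Among set 1 arrays alone (3 old and 2 young MPP4s), 52 of 53 members had a higher old mean. The median difference was 0.30, with 9 members at an unadjusted p under 0.05 (3.94% of all genes). The 2 young arrays there were replicates 1 and 2. Replicate 1 carried Xist signal and had the lowest value of all arrays for 31 members. Without the arrays carrying Xist signal (3 old and 2 young MPP4s), 46 had a higher old mean with a median of 0.19, and 14 were at an unadjusted p under 0.05 (3.68% of all genes). The 2 young arrays there were replicates 2 and 3, and replicate 3 was in set 2. So neither MPP4 subset matched the ages for array set and Xist signal at once. Only young replicate 2 was in set 1 without Xist signal. Its mean over the members was 1.940, against 1.946 on the lowest old MPP4 array. In MPP3s, set 1 alone (3 old arrays and 1 young) gave 47 of 53 with a median of 0.19. The fit then assumes that the single young array varies as the old ones do. That array was replicate 1, which carried Xist signal (3.52), while the young MPP3 arrays without Xist signal were both in set 2. So no MPP3 subset matched the ages for array set and Xist signal at once. Without old MPP3 replicate 2, 34 of 53 members had a higher old mean with a median of 0.07, 6 lay higher at an unadjusted p under 0.05 (3.15% of all genes) and 13 did not overlap (10.4% of all genes). Without young MPP3 replicate 1, the array with Xist signal, 38 of 53 members had a higher old mean with a median of 0.08. Then 15 of 53 members were higher in old without overlap, against 21.8% of all genes, and 4 were lower, against 19.2%. Without old MPP3 replicate 3, 20 members were higher at an unadjusted p under 0.05 (5.16% of all genes) and 25 did not overlap (12.7% of all genes).

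Between the populations, no segregation gene passed the adjusted threshold at either age. In young mice 19 of 53 members had a higher mean in MPP4s than in MPP3s (49.9% of all genes did), with a median difference of -0.08. By limma 0 members passed the adjusted threshold, against 0.131% of all genes (0.0679% higher and 0.0626% lower), and the SAM-type statistic called 0 members. 2 were higher at an unadjusted p under 0.05 (5.48% of all genes) and 3 lower (5.53%). Bub1b had 1.97, 2.18, 2.29, 2.36 and 2.18 in young MPP4s, against 1.98, 1.79 and 1.67 in young MPP3s, which overlapped only through MPP4 replicate 1 (0.38 ± 0.10, limma adjusted p = 0.240). Ncapg2, a condensin II subunit, differed by 0.20 ± 0.073. Knl1 had 1.67, 2.27, 1.87, 2.09 and 2.22 in young MPP4s, against 2.43, 2.37 and 2.43 in young MPP3s, without overlap (-0.38 ± 0.14, limma adjusted p = 0.370). Espl1 and Sgo2a differed by -0.26 ± 0.079 and -0.28 ± 0.092. The populations did not overlap for 0 members higher in MPP4s (3.74% of all genes) and for 1 lower, Knl1 (3.72%).

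In old mice 40 of 53 members had a higher mean in MPP4s than in MPP3s (48.3% of all genes), with a median difference of 0.08. By limma 0 passed the adjusted threshold (0% of all genes), 3 had a higher value with an unadjusted p under 0.05 (6.19% of all genes) and 0 lower (3.64%), and the SAM-type statistic called 0 members. Cenpk, of the inner kinetochore network, had 2.81, 2.82 and 2.92 in old MPP4s, against 2.53, 2.62 and 2.59 in old MPP3s, without overlap (0.27 ± 0.042, limma adjusted p = 0.236). Mad2l1 differed by 0.09 ± 0.031 and Spc25 by 0.22 ± 0.086. The populations did not overlap for 3 members higher in MPP4s, Cenpk, Mad2l1 and Ckap5 (9.03% of all genes), and for 0 lower (7.6%). In young mice the corresponding differences of Cenpk, Mad2l1 and Spc25 were 0.08 ± 0.22, 0.04 ± 0.054 and 0.24 ± 0.17. These comparisons between populations share their arrays with the age comparisons and are not independent of them.

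Other segregation genes were also more often higher in old samples, with smaller medians, and DNA replication genes were so in MPP4s only. Of 52 further kinetochore, cohesin, condensin and spindle genes that are not members, 44 had a higher old mean in MPP4s with a median difference of 0.08, 14 were higher (26.9%, against 4.5% of all genes) and 0 lower (5.27% of all genes) at an unadjusted p under 0.05, and 0 passed the adjusted threshold. Tacc3, a spindle protein that partners with Ckap5, ranked first among them (0.26 ± 0.052, limma adjusted p = 0.304). Old and young MPP4 arrays did not overlap for 4 of the 52 higher in old (7.69%, against 3.28% of all genes) and for 0 lower (4.01% of all genes). In MPP3s 36 of the 52 had a higher old mean with a median of 0.06, 2 were higher and 2 lower at an unadjusted p under 0.05 (3.85% each, against 3.44% and 4.75% of all genes), shares near those of all genes. The lower ones were Cdca5, the sororin that stabilises cohesin (-0.43 ± 0.071), and Cenpm (-0.17 ± 0.033). Of 28 DNA replication genes, 22 had a higher old mean in MPP4s (78.6%, against 49.8% of all genes, median 0.06). There 5 were higher and 1 lower at an unadjusted p under 0.05 (17.9% and 3.57%, against 4.5% and 5.27% of all genes). In MPP3s 14 had a higher old mean (50%, against 50.1% of all genes, median 0.02). At that threshold 1 was higher and 1 lower (3.57% each, against 3.44% and 4.75% of all genes), so the MPP3 shares were near those of all genes. Mki67, the proliferation antigen, had 2.80, 2.93 and 2.99 in old MPP4s, against 2.61, 2.94, 2.39, 2.47 and 2.59 in young MPP4s (0.31 ± 0.12, limma adjusted p = 0.486). Only young replicate 2 reached the old range. In MPP3s Mki67 had 2.95, 2.92 and 2.79 in old samples, against 2.93, 2.90 and 2.72 in young samples, which covered the same range.

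Markers of other blood cells were read beside these results. In old MPP3s 6 of 6 neutrophil markers had a higher mean than in young MPP3s, 2 at an unadjusted p under 0.05 and 0 past the adjusted threshold. Their mean ranged over 1.13 to 1.70 on the old MPP3 arrays, against 0.70 to 1.08 on the young MPP3 arrays. S100a8 reached 3.63 on old MPP3 replicate 2, the array with the highest value of its group for 34 segregation genes, while Mmp8 did not exceed 0.145 on any array. In MPP4s the mean of the 6 neutrophil markers ranged over 0.42 to 0.64 on old and 0.38 to 0.61 on young arrays. Old MPP3 replicate 2 also had the lowest values of all arrays for Kit (2.63) and Cd34 (2.63), genes of the sorted progenitors. The mean of 5 progenitor markers ranged over 1.83 to 2.19 in old MPP3s, against 2.20 to 2.30 in young MPP3s, with 1 of 5 higher. The mean of 6 T and NK cell markers ranged over 0.78 to 0.86 in old MPP3s, against 0.67 to 0.77 in young MPP3s, with 3 of 6 higher. Markers of B cells, erythroid cells, megakaryocytes and stroma had overlapping ranges between the ages in both populations, and no marker was at 0 on any array. The part of these markers in the results was not tested.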

How the data were processed

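RNA from 14 samples was amplified and hybridised to Affymetrix Mouse Gene ST 1.0 arrays. The authors processed the arrays by RMA, then quantile normalized them onto a standard exponential distribution (lambda 1) in R, so each deposited value is a score that carries rank within an array. The RMA version and genome build are not given in the sources used here. Of 22115 probe sets, 19236 had 1 gene symbol in the platform annotation, 744 had several and 2135 were not listed, and the first gave 19155 genes. A gene with several probe sets took the one with the highest mean. Array medians ranged over 0.662 to 0.675, and the number of arrays limits the precision.

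Groups followed the sample titles. Each comparison was fitted on its own arrays with limma 3.58.1 (lmFit and eBayes, two-sided, R 4.3.3), with Benjamini-Hochberg adjustment over all 19155 genes, a threshold of 0.05 and no filter. The interaction used all 14 arrays. The fit was tested on simulated data. Groups were said not to overlap where every value of one lay above every value of the other. Means over members are described with no test. Named genes were the 12 highest and 5 lowest by moderated statistic in each age comparison, the 6 highest and 6 lowest in the other comparisons, and the first of each sub-complex, with a few others named for their role. The alternatives were a SAM-type statistic, gene filters, probe set averaging, a variance trend, array weights, a replicate block, normal scores, subsets of arrays, leaving out each array and 1 fit of all groups. The members and lists were chosen with earlier results of these data known. Promoter windows came from RefSeq (GRCm38.p6).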

Additional observations from a re-analysis of the deposited data

Results flagged for a closer look

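In the young MPP4 group, the only one with enough arrays to ask, 44 sets of values (36 named genes, the mean of all members and 7 sub-complex means) were searched for an array far from the other 4, and 6 had one. For a single independent set chance gives about 1 in 20. These 44 sets share arrays and genes, so their count cannot be set against that rate. 5 of the 6 were replicate 1, which lay far below the rest for Cenpf (1.07), Cenpk (1.90), Plk4 (1.33), the mean over the inner kinetochore genes (1.30) and the mean over the outer kinetochore genes (1.29). The sixth was replicate 2, which lay above the rest for Cenpn (1.51). Replicate 1 was also 1 of 3 young MPP4 arrays with Xist signal (3.49).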

How the results depend on the processing

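The direction of the median member difference held under every alternative in all 5 comparisons. Leaving out 1 array at a time gave medians of 0.22 to 0.32 for age in MPP4s, 0.07 to 0.15 for age in MPP3s, -0.12 to -0.02 between young MPP4s and MPP3s, 0.02 to 0.12 between old ones and 0.03 to 0.19 for the interaction. Array weights changed most: in MPP4s 7 members and 304 genes then passed the adjusted threshold (Esco2, Mad2l1, Nusap1, Dlgap5, Aspm, Espl1 and Hmmr, limma adjusted p of 0.043 to 0.050), 3 members (Bub1b, Sgo2a and Espl1) and 1808 genes did between young populations and 2 (Espl1 and Bub1b) and 574 in the interaction, while in MPP3s 17 members were higher and 1 lower at an unadjusted p under 0.05, and in MPP4s 1 was lower. With weights the share of all genes at an unadjusted p under 0.05 and higher in old was 13.9% in each population. The SAM-type statistic called 1 member and 21 genes for age in MPP4s, 208 genes between young and 142 between old populations. One fit of all 4 groups called 9 genes for age in MPP3s, 1 in MPP4s and 27 between old populations. Array set 1 alone called 1 gene for age in MPP3s and 0 between young populations, and gave 9 members higher at an unadjusted p under 0.05 in MPP4s. Arrays without Xist signal gave 14 in MPP4s, 2 lower in MPP3s, and 0 genes called between young populations. For the populations, leaving out the dimmest 33.3% of genes called 59 genes in young and 1 in old mice, normal scores 51 and 2, and a variance trend with robust estimation 48 in young mice and 2 in the interaction. The cause was not tested.

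Leaving out 1 array gave, for age in MPP4s, 0 to 15 genes called, and 14 to 30 members higher and 0 to 1 lower at an unadjusted p under 0.05. The share of all genes at that threshold also moved with the array left out, as given above for some arrays. These counts are therefore not to be read alone. Without overlap 18 to 32 members were higher (3.85% to 6.72% of all genes) and 0 to 1 lower (4.68% to 8.36%). For age in MPP3s leaving out 1 array gave 6 to 20 members higher and 0 to 2 lower at an unadjusted p under 0.05. Here too the share of all genes moved with the array left out. Without overlap 13 to 25 members were higher (7.84% to 21.8% of all genes) and 0 to 4 lower (10.5% to 19.2%). Genes called ranged over 8 to 108 between young populations (25 with all arrays), 0 to 3 between old ones and 0 to 10 in the interaction.

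Differences of some members near 0 changed sign. For age in MPP3s, array set 1 alone gave Ska1 0.044, Esco1 0.122, Espl1 0.014 and Ndc80 0.034, and arrays without Xist signal gave Ska2 -0.0014. Leaving out 1 array gave -0.237 to 0.054 for Ska1 and -0.022 to 0.137 for Ska2. For age in MPP4s, set 1 alone gave Esco1 0.027, Spc24 0.016 and Pttg1 0.146, arrays without Xist signal gave Esco1 0.082, and array weights gave Cenpp -0.088. Leaving out 1 array gave -0.080 to 0.071 for Cenpp, -0.068 to 0.014 for Cenpa, -0.139 to 0.019 for Esco1 and -0.148 to 0.030 for Spc24. Between young populations Esco1 was -0.126 without Xist arrays and Birc5 0.0064 in set 1, and between old ones Incenp was 0.010 with weights. In the interaction weights gave Aurka 0.037 and Cenpa 0.023, and set 1 gave Bub1b 0.035.

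Deviations of same-numbered arrays from their group means correlated at -0.19 to 0.41, so replicate numbers showed no pairing throughout. The highest value was between replicate 1 of young MPP3s and of young MPP4s. These arrays were both in set 1 and carried Xist signal (3.52 and 3.49). Whether they came from the same mice was not tested. With the replicate number as a block, 0 members were called in all 5 comparisons, and 0 genes were called between young populations. At an unadjusted p under 0.05, 27 members were higher for age in MPP4s and 11 in MPP3s. The share of all genes at that threshold under the block is not given here. The block turned Esco1 (0.077) and Pttg1 (0.019) for age in MPP4s and Esco1 (-0.0024) between young populations. The SAM-type statistic was not run for the interaction, and 1 fit of all groups is the interaction's own fit. Arrays number 3 to 5 a group, and values near the lower end of the scale carry little signal.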
